A study of Mus musculus with 6 samples.

Results

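The genes described here encode the myomesins and the myosin-binding proteins of the sarcomere, together with 1 small muscle protein. They are the 8 rows named Myom1, Myom2, Myom3, Mybpc1, Mybpc2, Mybpc3, Mybph and Smpx among the 55286 gene symbols of the deposited count table. The list goes by gene family, with no threshold on expression. Mouse RNA sequencing libraries fell into 3 groups of 2: mouse embryonic fibroblasts (MEF), muscle, and cells obtained by direct reprogramming, called transdifferentiated cells in the following. Strain, genotype, age, type of muscle, the agent of conversion and its duration were not stated in the sources used here. Whether replicates were separate cultures or animals was not stated either, and p-values then measure only a spread that may be technical.

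The sarcomere is built from thick filaments of myosin and thin filaments of actin. At its centre the thick filaments are tied together by the M-band, a lattice of myomesins that also holds the end of the giant protein titin. The myosin-binding proteins C sit in stripes along the thick filament on either side, where they restrain the myosin heads and link them to actin. Separate genes encode the slow skeletal (Mybpc1), fast skeletal (Mybpc2) and cardiac (Mybpc3) forms. Myosin-binding protein H (Mybph) is a shorter relative of these, and Smpx is a small muscle protein of the cell cortex and cytoskeleton that is not itself part of the thick filament.

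The stretches of DNA ahead of the annotated starts are shown first for the genes whose stretches held the motifs of muscle transcription factors nearest their starts or in common. RefSeq sequences on GRCm38.p6, the mm10 assembly, were matched by symbol for 7 of the 8 genes; Myom2 had no entry. Each is given 5′ to 3′ on the strand of its gene, and capitals mark the E-box CANNTG (bound by MyoD and its relatives), the MEF2 motif (bound by the MEF2 factors) or the run CTATATTTA. Coordinates are 17:71019407-71019520 (plus strand) for Myom1, 4:135759565-135759714 (plus) for Myom3, 10:88605153-88605302 (minus) for Mybpc1, 2:91117994-91118143 (plus) for Mybpc3 and 1:134193298-134193447 (plus) for Mybph.
Myom1: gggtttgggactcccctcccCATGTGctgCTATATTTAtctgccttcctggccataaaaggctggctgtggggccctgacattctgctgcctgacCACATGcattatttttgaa
Myom3: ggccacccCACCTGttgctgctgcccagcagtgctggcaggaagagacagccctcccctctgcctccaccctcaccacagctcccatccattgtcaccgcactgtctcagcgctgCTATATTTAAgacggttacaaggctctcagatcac
Mybpc1: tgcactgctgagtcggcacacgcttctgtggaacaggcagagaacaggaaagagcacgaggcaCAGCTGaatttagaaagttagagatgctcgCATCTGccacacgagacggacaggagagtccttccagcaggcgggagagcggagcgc
Mybpc3: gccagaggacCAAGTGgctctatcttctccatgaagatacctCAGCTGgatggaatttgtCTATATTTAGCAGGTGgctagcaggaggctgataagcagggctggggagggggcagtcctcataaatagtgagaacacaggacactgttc
Mybph: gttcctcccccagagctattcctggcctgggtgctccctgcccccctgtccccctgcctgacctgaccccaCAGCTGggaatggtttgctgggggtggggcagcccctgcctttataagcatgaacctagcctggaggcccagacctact

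Within 250 bases ahead of the start, 6 of the 7 genes held an E-box CANNTG, against 66.2% of all 32851 RefSeq start windows. The narrower E-box CAGCTG, a form that MyoD prefers and which is contained in CANNTG, was found in 3 of the 7 (Mybpc1, Mybpc3 and Mybph), 87, 108 and 79 bases ahead of the start, against 13% of all windows. The MEF2 motif was found ahead of Myom3 (35 bases) and Mybpc3 (90 bases), against 2.92% of all windows. The 9 bases CTATATTTA, searched on both strands and chosen after the sequences had been seen, occurred in Myom1, Myom3 and Mybpc3, against 0.186% of all windows. In Myom3 and Mybpc3 this run is part of the MEF2 match. The E-boxes and the MEF2 motif are their own reverse complements, so both strands were covered. No match was found in the Smpx window. The printed Myom1 stretch stops 37 bases before the RefSeq start, where exons of another Myom1 transcript begin in GENCODE, and lies inside the longer GENCODE gene model. A match describes the letters of a window and is not evidence of binding. Mybpc3, which had E-boxes and a MEF2 match, was also the 1 member that stayed at 8 counts or fewer in every library.

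**Figure D1:**
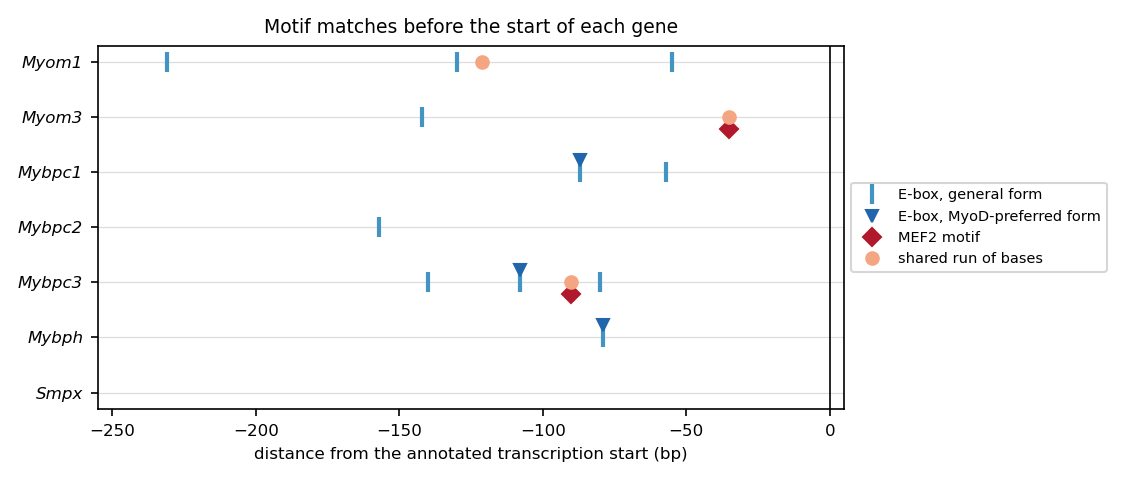
Position of each motif match (horizontal axis, base pairs from the RefSeq transcription start at 0) for the 7 genes with a window (vertical axis), with bars for the general E-box, triangles for CAGCTG, diamonds for the MEF2 motif and circles for the shared run CTATATTTA. The Myom3 MEF2 match lies 35 bases ahead of the start and the Smpx row is empty.

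The libraries held between 16817033 and 24584951 counted reads. All 12 skeletal muscle markers tested as a list were higher in muscle and in transdifferentiated cells than in MEF, and none was called between muscle and transdifferentiated cells (edgeR adjusted p under 0.05). The smallest p belonged to the fast troponins Tnnt3 and Tnni2 and to the Z-disc actinin Actn2. The 10 fibroblast markers summed to 48156 and 32095 CPM (counts scaled to the library total, with TMM factors) in the 2 MEF libraries, 21754 and 12857 in those of muscle and 20088 and 25160 in the transdifferentiated ones. Of these, muscle had 7 below MEF, and transdifferentiated cells had 3 below and 2 above MEF and 6 above muscle. The sum is mostly matrix genes such as fibronectin Fn1 (16404 CPM for MEF, 5944 for muscle and 5492 for transdifferentiated cells). Of the surface markers, Ly6a (472, 9.68 and 36.6 CPM) and Thy1 (755, 22.03 and 102 CPM) were far lower outside MEF. The surface marker Pdgfra, named after its values were seen, stood at 90.7, 6.08 and 57.3 CPM. It was not called between transdifferentiated cells and MEF (edgeR adjusted p = 0.214). Collagen Col3a1 (1.03 ± 0.31) and lumican Lum (1.499 ± 0.36 on the log2 scale) were the 2 above MEF in transdifferentiated cells. Transdifferentiated cells exceeded both other groups in 10 of 10 macrophage markers, with the smallest p against MEF for the complement genes C1qa and C1qc and the Fc receptor chain Fcer1g. The 10 summed to 501.7 and 503.4 CPM there, 54.0 and 41.6 for MEF and 5.33 and 3.77 for muscle. In muscle 9 of the 10 were below MEF, and 3 and 5 of them were at 0 counts in its libraries. Of 6 satellite cell markers tested, muscle had 3 above and 1 below MEF, and transdifferentiated cells had 2 above and 1 below MEF, and 2 above and 2 below muscle; the 3 called against MEF in transdifferentiated cells were Cdh15 and Chodl (above) and Vcam1 (below). The part of these other cells in the values of the 8 genes was not tested.

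Of the 8 genes, 7 passed the count filter (Mybpc3 did not), and all 7 were higher in both muscle and transdifferentiated cells than in MEF. Over all tested genes, 17.3% were called higher and 18.3% lower for muscle against MEF, and 15.9% higher and 11.3% lower for transdifferentiated cells against MEF. The median log2 fold change of the 7 was 9.74 in muscle and 8.95 in transdifferentiated cells, beside medians of 0.00 and 0.07 over all 17400 tested genes. Both comparisons use the same MEF libraries. For all 7 the libraries of muscle and of transdifferentiated cells lay above those of MEF without overlap. Over all tested genes 34.5% lay above and 34.3% below MEF in this way for muscle, and 32.7% above and 27.9% below for transdifferentiated cells. In transdifferentiated cells against muscle, 1 of the 7 was lower (Mybpc2) and none higher, against background shares of 2.46% lower and 7.58% higher. DESeq2 called 2 lower and 0 higher, against 622 lower and 1560 higher among all 17400 tested genes. At an unadjusted p under 0.05 edgeR gave 0 higher and 3 lower (Myom1, Myom3 and Mybpc2), against 14.2% and 7.32% of all tested genes. The libraries of these groups did not overlap for any of the 7, with Mybpc1 above and the other 6 below muscle, while 26.4% of all tested genes lay above and 22.5% below. The median log2 fold change of the 7 was -0.67, beside 0.03 over all tested genes. It was -0.09 for the 12 skeletal muscle markers and -0.43 for the 29 other thick filament and M-band genes tested below. In bulk RNA, fewer muscle cells and less RNA per muscle cell cannot be told apart.

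**Figure D2:**
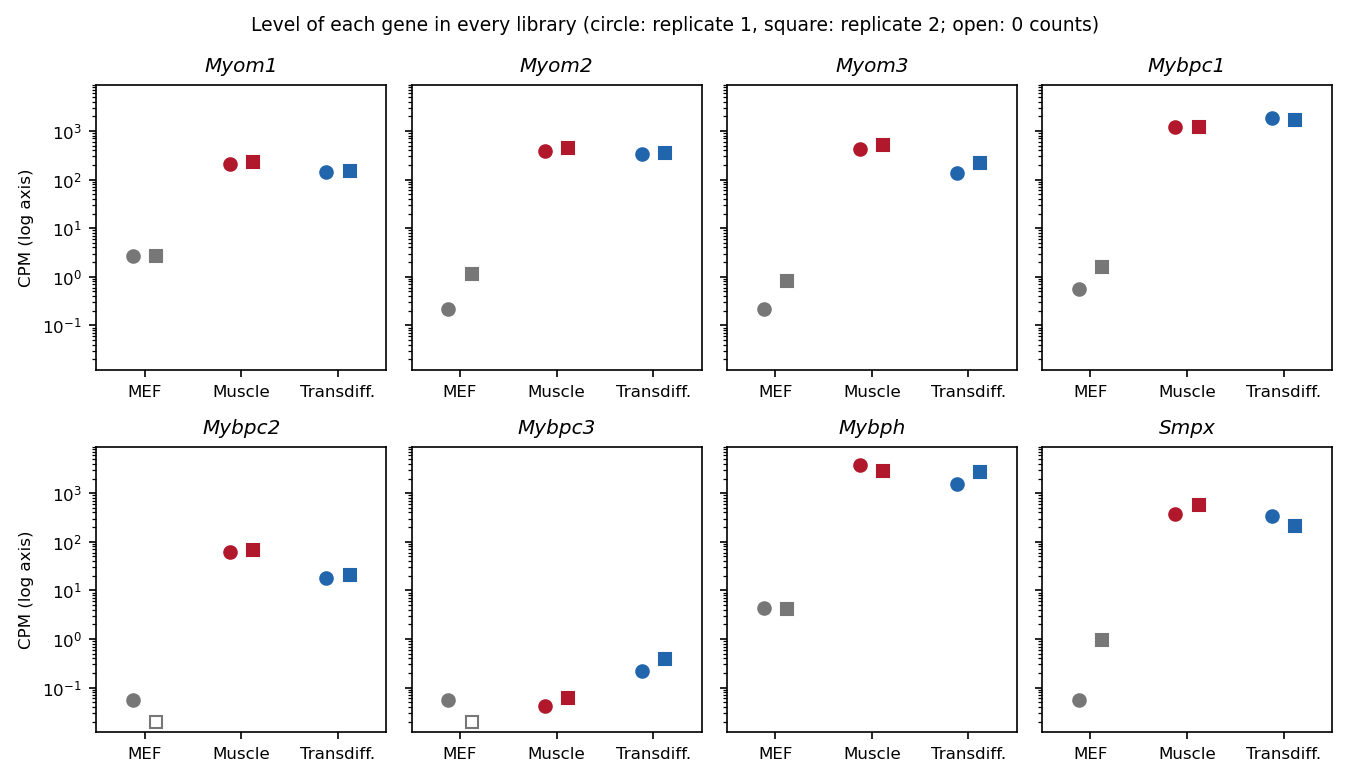
Level of each of the 8 genes in CPM (vertical log axis) in the 2 libraries of each group, with circles for replicate 1 and squares for replicate 2; open symbols mark 0 counts and are drawn at the bottom of the axis. Muscle and transdifferentiated libraries lie far above MEF for every gene except Mybpc3, whose highest value is 0.387 CPM.

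Myom1 encodes myomesin-1, the general cross-linker of the M-band in striated muscle (17:71002633-71126856, plus strand). Its level was 2.64 and 2.62 CPM for MEF, 213 and 227 for muscle, and 143 and 151 for transdifferentiated cells. The replicates of each group lay close together, and the 3 groups did not overlap. Myom1 was 83.3-fold higher in muscle than in MEF (log2 6.38 ± 0.29, SE; edgeR adjusted p = 1.4e-06) and 55.7-fold higher in transdifferentiated cells (5.80 ± 0.29, adjusted p = 2.9e-06). These were the smallest increases among the 7 tested members, beside the second highest MEF level per kilobase of exon (0.252 CPM per kb). Its annotated exons share 207 bases with exons of Myl12a on the opposite strand, a gene at 341 and 469 CPM in MEF, and whether counting used strand was not stated; the part of this overlap in the Myom1 value was not tested. Between transdifferentiated cells and muscle the log2 difference of Myom1 was -0.58 ± 0.23 (adjusted p = 0.169).

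Myom2 encodes M-protein, a myomesin of fast fibres and of the heart (8:15057653-15133541, plus strand). Its MEF libraries had 4 and 23 counts, or 0.220 and 1.12 CPM. Muscle stood at 389 and 450 CPM and transdifferentiated cells at 330 and 353 CPM, so these groups lay next to each other without overlap. Myom2 rose by 9.24 ± 0.58 on the log2 scale in muscle and by 8.95 ± 0.57 in transdifferentiated cells, both over MEF (edgeR adjusted p = 7.4e-06 and 1.1e-05). The difference between transdifferentiated cells and muscle was -0.30 ± 0.39 (adjusted p = 0.78), the smallest in size among the 7.

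Myom3 encodes myomesin-3, the third family member, known from intermediate and slow fibres (4:135759715-135815564, plus strand). The MEF libraries had 4 and 17 counts (0.220 and 0.826 CPM), those of muscle 419 and 505 CPM, and the transdifferentiated ones 135 and 222 CPM. The higher transdifferentiated library stayed below the lower muscle library, and the 2 transdifferentiated libraries differed by 1.64-fold. Against MEF, Myom3 rose by 9.74 ± 0.58 on the log2 scale in muscle and by 8.36 ± 0.55 in transdifferentiated cells (edgeR adjusted p = 5.7e-06 and 1.3e-05). Between transdifferentiated cells and muscle the log2 difference was -1.37 ± 0.38, which missed the threshold (adjusted p = 0.0568). Over 13 alternatives the log2 difference lay between -1.78 and -1.06. Myom3 was called lower with the DESeq2 test, with no filter on low counts, with only the 2 groups compared and with the replicate block. It was not called with DESeq2 size factors or with scaling that left out the muscle genes. The 13 include a crossed replicate block, which was chosen after the data were seen and also called it lower.

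The make-up of the myomesin family differed between muscle and transdifferentiated cells. Levels were divided by merged exon length to compare genes. Myom3 made up 51.9% and 53.5% of the summed myomesin level in muscle, and 30.6% and 40.3% in transdifferentiated cells. For Myom2 the shares were 32.9% and 32.6% for muscle, then 50.8% and 43.8% for transdifferentiated cells. Myom1 took the rest, 13.9% to 15.2% and 15.9% to 18.6%. The order was therefore Myom3, Myom2, Myom1 in muscle and Myom2, Myom3, Myom1 in transdifferentiated cells, with no overlap of libraries for either Myom2 or Myom3. With the length of the longest transcript instead, Myom2 and Myom3 were level in muscle (40.4% and 40.5%), and in transdifferentiated cells Myom2 stood at 53.9% ± 4.02 and Myom3 at 25.2% ± 5.69 (SD, n = 2). No model was fitted to these shares, and with 2 libraries a group the smallest two-sided exact permutation p is 0.333. Summed over the 3 genes, the level per kb was 134 and 156 CPM for muscle, 73.4 and 91.0 for transdifferentiated cells and 0.314 and 0.514 for MEF.

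**Figure D3:**
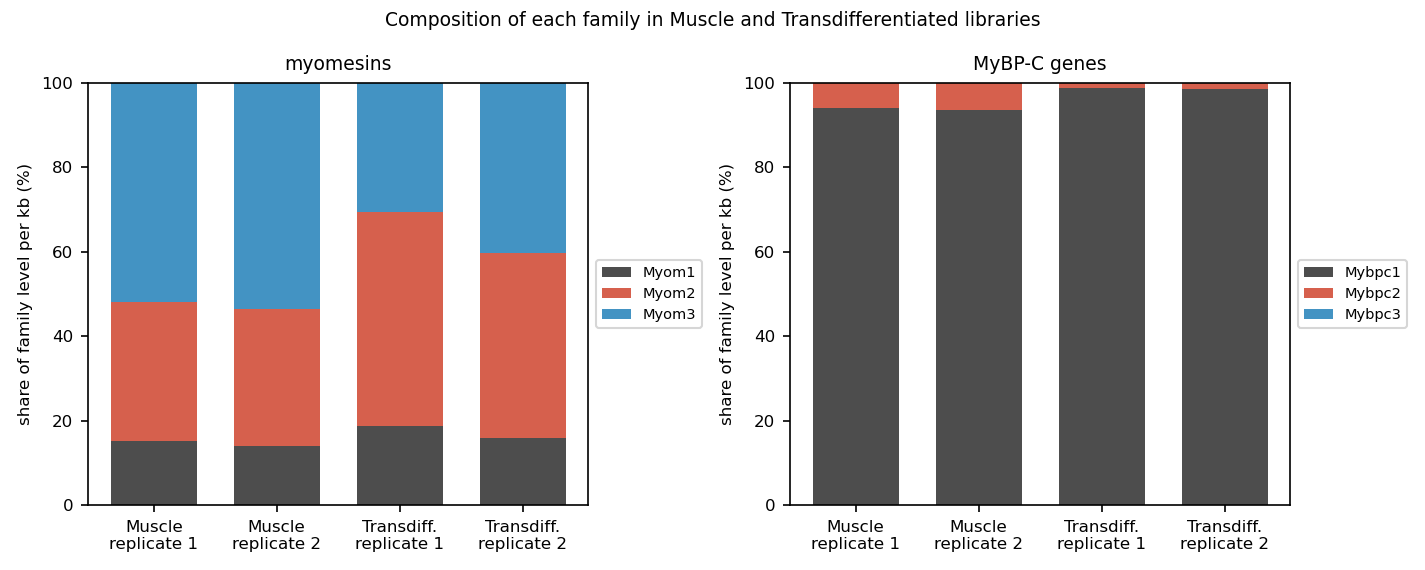
Share of each gene in the summed level per kilobase of its family (vertical axis, percent), for the myomesins (left) and the MyBP-C genes (right), in each muscle and transdifferentiated library. Myom3 is the largest myomesin share in both muscle libraries and Myom2 in both transdifferentiated libraries, while Mybpc1 exceeds 93% of the MyBP-C level in all 4; Mybpc3 is too low to be seen.

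Mybpc1, the slow skeletal myosin-binding protein C (10:88518279-88605152, minus strand), had the highest level per kb of its family in each group. Its MEF libraries held 10 and 32 counts (0.551 and 1.55 CPM), against 1216 and 1205 CPM for muscle and 1880 and 1658 CPM for transdifferentiated cells. It was the 1 tested member whose transdifferentiated libraries both lay above both muscle libraries. Against MEF it rose by 10.14 ± 0.50 on the log2 scale in muscle and by 10.68 ± 0.51 in transdifferentiated cells (edgeR adjusted p = 2.5e-06 and 2.9e-06), the latter ranking 36 of 17400 tested genes. The log2 difference between transdifferentiated cells and muscle was 0.55 ± 0.33 (adjusted p = 0.42). Mybpc1 made up 94.0% and 93.5% of the MyBP-C level per kb in muscle and 98.8% and 98.5% in transdifferentiated cells.

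Mybpc2, the fast skeletal form (7:44501699-44524656, minus strand), reached a lower level. The MEF libraries held 1 and 0 counts, where 0 counts allow up to 0.146 CPM. Muscle stood at 61.4 and 66.4 CPM and transdifferentiated cells at 17.7 and 20.3 CPM. The muscle libraries lay well above the transdifferentiated ones, and the replicates of each group were within 1.15-fold of each other. The ratio to the single MEF count was 2459 in muscle (exact Poisson interval at 95 percent 441 to 97160) and 739 in transdifferentiated cells (132 to 29220), intervals that cover counting error only. The test called both differences (edgeR adjusted p = 2.8e-06 and 8.4e-06). Mybpc2 was also the 1 member called between transdifferentiated cells and muscle, 3.37-fold lower (log2 -1.75 ± 0.30, edgeR adjusted p = 0.00678). Without Muscle replicate 2 the log2 value was -1.70 and the call was lost (adjusted p = 0.0619). Its share of the MyBP-C level was 5.96% and 6.46% for muscle and 1.16% and 1.51% for transdifferentiated cells.

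Mybpc3, the cardiac form (2:91118144-91136516, plus strand), was counted 1 and 0 times in the MEF libraries, once in each muscle library, and 4 and 8 times in the transdifferentiated ones. These levels, at most 0.387 CPM, did not pass the count filter, and no test was made. The ratio of transdifferentiated cells to muscle was 6.22 (exact Poisson interval 1.39 to 57.3) and to MEF 12.1 (1.79 to 517), counting error only. Cardiomyocyte markers were looked at beside it. The 11 markers summed to 18.2 and 14.4 CPM for MEF, 180.0 and 114 for muscle, and 207 and 171 for transdifferentiated cells. Most of this was Sln, the sarcoplasmic reticulum regulator sarcolipin, and Myh6, alpha myosin, at 151 and 26.2 CPM in transdifferentiated cells and 115 and 28.6 CPM in muscle. The 2 were the members of that list called higher than in MEF in each. The other 9, given in full and not chosen by the naming rule except Hand1, had 215 (Nppb), 153 (Gata4), 29 (Nppa), 23 (Tbx20), 22 (Tnni3), 7 (Myl7), 6 (Nkx2-5), 1 (Hand1) and 0 (Bmp10) counts over the 2 transdifferentiated libraries. In the same order, these 9 had 183, 286, 15, 58, 19, 7, 7, 39 and 1 counts over the 2 MEF libraries. The natriuretic peptide genes Nppb and Nppa, with 6 and 0 counts over the muscle libraries, were called above muscle (edgeR adjusted p = 7.7e-04 and 0.0217). Neither was called between transdifferentiated cells and MEF (edgeR adjusted p = 0.697 and 0.428), and Hand1 was lower than in MEF (adjusted p = 0.0221). Of 8 listed genes tested, 2 were higher and 5 lower in muscle against MEF. In transdifferentiated cells 2 were higher and 1 lower against MEF. Against muscle, 2 were higher in transdifferentiated cells (Nppb and Nppa).

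Mybph encodes myosin-binding protein H, a thick filament protein that lacks much of the amino-terminal part of its MyBP-C relatives (1:134193448-134201232, plus strand). It had the highest level per kb of the 8 genes in each group. MEF stood at 4.41 and 4.18 CPM, muscle at 3834 and 2914 CPM, and transdifferentiated cells at 1512 and 2738 CPM. The higher transdifferentiated library came close to the lower muscle library without reaching it, and the transdifferentiated replicates differed by 1.81-fold, against a median of 1.31-fold over 7240 genes at 20 CPM or more. Mybph rose against MEF by 9.62 ± 0.46 on the log2 scale in muscle and 8.95 ± 0.44 in transdifferentiated cells (edgeR adjusted p = 2.1e-06 and 3.5e-06). Transdifferentiated cells and muscle differed by -0.67 ± 0.31 (adjusted p = 0.266). Exons of Adora1, the adenosine A1 receptor gene on the opposite strand, share 1162 bases with Mybph exons, and Adora1 stood at 60.8 and 60.9 CPM in muscle, 18.4 and 28.8 in transdifferentiated cells and 0.0551 and 0.146 in MEF. Without a stated strand setting the reads of the 2 genes cannot be told apart there.

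Smpx (X:157698910-157752591, plus strand) had 1 and 20 counts in the MEF libraries, or 0.0551 and 0.971 CPM. It stood at 379 and 561 CPM in muscle and 341 and 208 CPM in transdifferentiated cells. The 2 groups lay close, with the higher transdifferentiated library just below the lower muscle library. Smpx rose against MEF by 9.77 ± 0.79 on the log2 scale in muscle and by 8.995 ± 0.77 in transdifferentiated cells (edgeR adjusted p = 3.1e-05 and 5.9e-05). The difference between transdifferentiated cells and muscle was -0.77 ± 0.52 (adjusted p = 0.482). The transdifferentiated replicates of Smpx differed in the opposite sense to those of Mybph and Myom3, replicate 1 being 1.64-fold above replicate 2.

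The size of the increase over MEF moved with the MEF library left out for 5 of the 7 genes, while all 7 stayed called. Without MEF replicate 2 the log2 fold change in transdifferentiated cells was 12.12 for Smpx, 10.55 for Myom2, 9.62 for Myom3 and 11.63 for Mybpc1, and without MEF replicate 1 it was 8.13, 8.24, 7.74 and 10.14. In muscle the same genes gave 12.89, 10.85, 10.99 and 11.08 without MEF replicate 2, and 8.90, 8.54, 9.11 and 9.60 without MEF replicate 1. For Mybpc2 the order was opposite, with 8.26 and 11.55 in transdifferentiated cells and 10.02 and 13.30 in muscle. Myom1 and Mybph, which had 48 to 86 counts in each MEF library, stayed within 0.05 of their log2 values. In the authors' deposited table, whose header names no contrast, 7 of the 8 genes are listed, with log2 fold changes from -6.28 (Myom1) to -9.96 (Mybpc2). All 7 signs are negative, as they would be for MEF over either of the other groups.

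**Figure D4:**
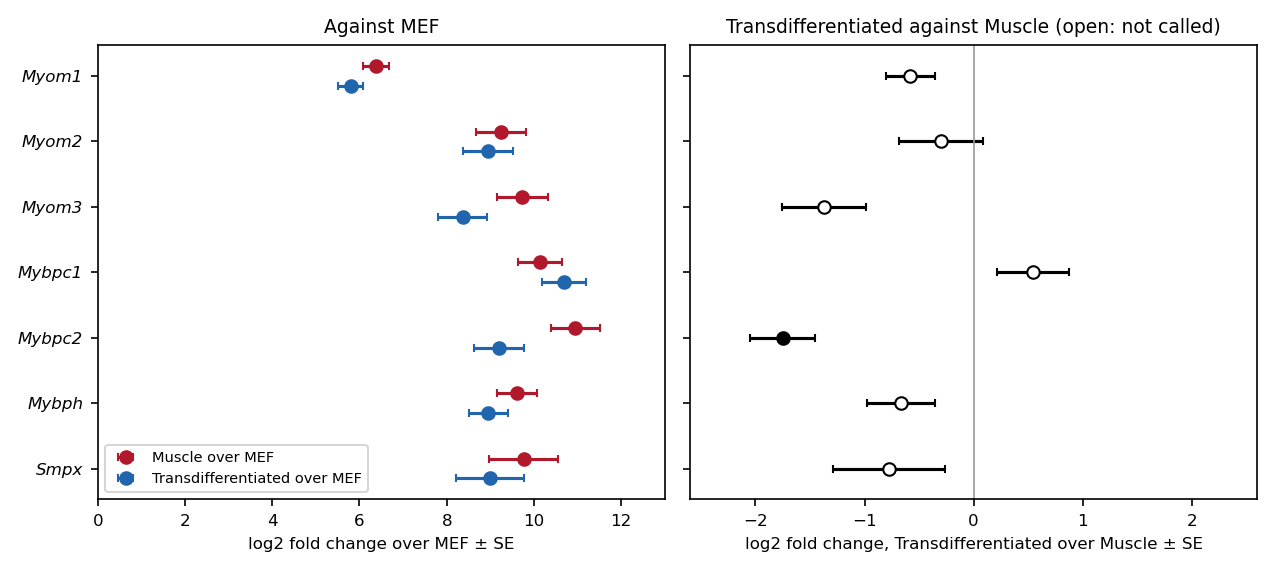
Log2 fold change (horizontal axes, with SE bars) of the 7 tested genes in muscle and in transdifferentiated cells over MEF (left) and in transdifferentiated cells over muscle (right); filled symbols were called at an edgeR adjusted p under 0.05. On the right, Mybpc2 at -1.75 is the filled point and Mybpc1 at 0.55 is the 1 point above 0.

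Titin anchors the myomesins and the myosin-binding proteins C along the thick filament, so each level per kb was also set against that of Ttn in the same library. Ttn itself differed between transdifferentiated cells and muscle by a log2 value of -0.86 ± 0.27 (edgeR adjusted p = 0.0935). Mybpc1 stood at 5.28 and 4.26 times the Ttn level in muscle and at 13.6 and 11.5 times in transdifferentiated cells, with no overlap. Myom2 stood at 0.863 and 0.814 times in muscle and 1.22 and 1.25 times in transdifferentiated cells, also without overlap. Myom1 stood at 0.400 and 0.347 times and at 0.446 and 0.454 times, a smaller gap, again without overlap. Lower ratios in both transdifferentiated libraries were found for 2 members. Myom3 went from 1.36 and 1.34 to 0.732 and 1.15, and Mybpc2 from 0.334 and 0.294 to 0.160 and 0.176. The ratios of Mybph (32.3 and 20.02 in muscle, 21.2 and 36.9 in transdifferentiated cells) and Smpx (3.27 and 3.94, then 4.90 and 2.87) overlapped between the groups. The multiples rest on merged exon length. With the longest transcript, Myom2 stood above Ttn in both groups, at 1.38 and 1.30 times in muscle and 1.94 and 1.99 times in transdifferentiated cells. No test was made of these ratios, and how many of all genes lack overlap in them was not counted. In CPM, 26.4% of all tested genes lay above and 22.5% below muscle without overlap. Myom1 and Myom2 were themselves below muscle (log2 -0.58 and -0.30), by less than Ttn, so their ratios to Ttn lay higher.

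**Figure D5:**
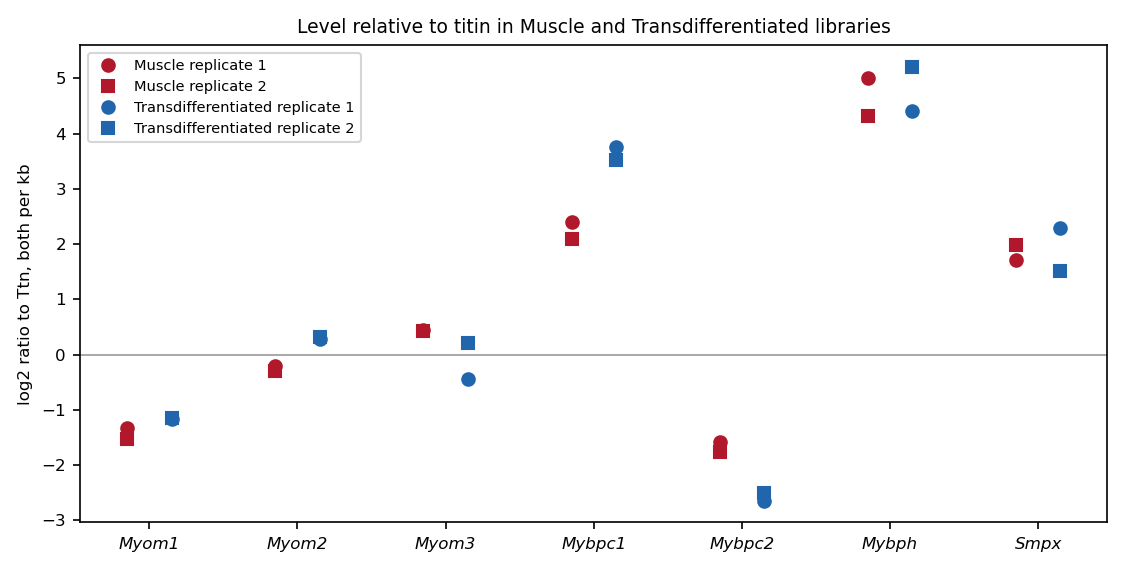
Log2 ratio of each gene's level per kilobase of merged exon to that of Ttn (vertical axis) in the 2 muscle and 2 transdifferentiated libraries. Mybpc3 is left out for its low counts. Mybpc1, Myom2 and Myom1 lie higher and Mybpc2 and Myom3 lower in transdifferentiated cells, while the points of Mybph and Smpx overlap.

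Ordered by level per kb, the 8 genes ran Mybph, Mybpc1, Smpx, Myom3, Myom2, Myom1, Mybpc2 and Mybpc3 in muscle, at 1449 ± 279, 267 ± 1.65, 206 ± 56.6, 76.5 ± 10.1, 47.4 ± 4.91, 21.02 ± 0.940, 17.7 ± 0.978 and 0.0124 ± 0.00309 CPM per kb (SD, n = 2). Mybpc1 and Smpx were close to their spread apart, and the libraries of the other neighbours were further apart than either SD. In transdifferentiated cells the order was the same except that Myom2 (38.6 ± 1.80) passed Myom3 (29.6 ± 10.1), which lay within 1 SD of it. Mybph stood at 913 ± 372, Mybpc1 at 391 ± 34.6, Smpx at 121 ± 41.2, Myom1 at 14.1 ± 0.582, Mybpc2 at 5.25 ± 0.516 and Mybpc3 at 0.0735 ± 0.0276 CPM per kb. In MEF, Mybph (1.84 ± 0.0695) was the highest and the other 7 lay at or below 0.252 CPM per kb. These orders rest on merged exon length. With the longest transcript, Smpx stood at 5.90 and 7.12 times Ttn in muscle, above Mybpc1 at 5.57 and 4.50 times. Myom2 and Myom3 were then level in muscle. In transdifferentiated cells Myom1 (0.755 and 0.769 times Ttn) then lay between the 2 values of Myom3 (0.725 and 1.14).

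The other proteins of the thick filament and M-band were taken from 3 lists of 30 genes, of which 29 passed the count filter. In transdifferentiated cells against MEF 24 were higher, 2 lower and 3 neither, and in muscle against MEF 24 were higher, 3 lower and 2 neither, against the background shares given above. All 13 myosin heavy and light chain genes were higher in both, with medians of 9.21 and 9.82; those with the smallest p were Myh8 (perinatal myosin, log2 10.56 ± 0.37), Myl4 (the embryonic and atrial essential light chain, 8.79 ± 0.33) and Myh7 (slow myosin, 9.25 ± 0.36; all in transdifferentiated cells over MEF, edgeR adjusted p = 1.4e-06 for each). Among M-band and thick filament partners 9 of 12 were higher in each comparison, led by the muscle creatine kinase Ckm (9.74 ± 0.37), the ubiquitin ligase Trim55 (9.34 ± 0.38) and Ttn (9.56 ± 0.40). Fhl2, a LIM-domain adaptor that binds titin, was lower in transdifferentiated cells (-2.10 ± 0.27, edgeR adjusted p = 5.9e-04), the 1 member called against the majority there. In muscle Fhl2 (-1.58 ± 0.26, adjusted p = 0.00177) and the autophagy receptor Sqstm1 (-0.86 ± 0.27, adjusted p = 0.0353; named after its values were seen) were lower. Of the 4 genes for myosin folding and assembly, the methyltransferase Smyd1 (9.57 ± 0.34) and the muscle chaperone Unc45b (9.32 ± 0.45) rose, the general chaperone Unc45a fell by 1.65 ± 0.32 in log2 (edgeR adjusted p = 0.00593), and the remaining gene, Hsp90aa1, stood at 106 CPM in MEF and 77.8 in transdifferentiated cells (adjusted p = 0.391). Mybphl, the remaining relative of Mybph, had 7 counts over the MEF libraries, 1 over those of muscle and 1 over the transdifferentiated ones. Among the listed myosin heavy chains, embryonic Myh3 had the highest CPM in both groups, at 6862 in muscle and 4721 in transdifferentiated cells. Fast Myh4 stood at 143 and 153 CPM (both named after their values were seen). The stage of the muscle was not stated.

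Between transdifferentiated cells and muscle, 2 of the 29 partner genes were higher, 2 lower and 25 neither, beside 7.58% higher and 2.46% lower over all tested genes. Named after their values were seen, the higher ones were Myh2, the myosin of fast oxidative fibres (140 CPM in muscle and 378 in transdifferentiated cells; 1.43 ± 0.32, edgeR adjusted p = 0.0249), and the LIM protein Fhl1 (734 and 3044 CPM; 2.05 ± 0.27, adjusted p = 0.00195). The lower ones were slow myosin Myh7 (447 and 208 CPM; -1.10 ± 0.23, adjusted p = 0.0172) and Myl2, the regulatory light chain of slow and cardiac muscle (127 and 2.29 CPM; -5.79 ± 0.42, adjusted p = 1.8e-04). The higher count was 1 without Muscle replicate 2 or Transdifferentiated replicate 2. The lower count was 1 without Muscle replicate 1, Muscle replicate 2 or Transdifferentiated replicate 1, and 4 without either MEF library.

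For 4 of the 7 tested members, the non-member gene most like each is given, by the root mean square difference of log2 CPM over the 6 libraries, after each gene's own mean was subtracted. The log values used a prior count of 2, which sets the MEF value of a gene at or near 0 counts and so enters these differences. Myom1, whose nearest gene was at 0 counts in MEF, and Mybpc2, with 1 count in MEF, are left out for that reason. The pairs kept are not free of this limit. Smpx had 1 and 20 counts in the MEF libraries, Myom2 had 4 and 23, and Csrp3 averaged 0.201 CPM in MEF. Mybph was nearest to Myog (myogenin, difference 0.164), Mybpc1 to Csrp3 (a muscle LIM protein, 0.188), Myom2 to Casq2 (a calsequestrin, 0.226) and Smpx to Tnnt1 (slow troponin T, 0.382). Among the members themselves, Smpx and Myom2 were the closest pair (0.471). Among all tested genes, however, Myom2 ranked 3 in nearness to Smpx, and Smpx ranked 19 in nearness to Myom2.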

How the data were processed

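Libraries made with the Lexogen SENSE kit were read as 75 bp single ends on a NextSeq instrument, per the labels' protocols. The authors deposited whole-number counts per gene symbol, not normalized. The submitters' processing notes name mm10, featureCounts 1.6.2, HISAT2 2.1.0, DESeq2 1.26.0 and Trim Galore 0.6.0 without roles. Annotation and strand setting were not stated. A second deposited table holds the authors' log2 fold changes with SE, p-values and adjusted p-values, per the file headers.

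The counts went through edgeR 4.0.16 in R 4.3.3: filterByExpr by group (17400 genes), TMM scaling, and 1 robust quasi-likelihood fit over the 6 libraries (3 residual degrees of freedom), Benjamini-Hochberg adjusted over all tested genes and called under 0.05. CPM use TMM factors, with a floor of 3 counts (0.128 to 0.183 CPM). Exon lengths and coordinates are GENCODE M21. DESeq2 1.42.0 served as an alternative. The members and lists were chosen with earlier results of these data known. Genes named are all members, the 3 genes of each list with the smallest p in transdifferentiated cells against MEF, any called against a list's majority, and the gene nearest each member, of which 1 is not reported here and 2 rest on MEF counts near 0 and are left out. Others are marked or complete a list.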

Additional observations from a re-analysis of the deposited data

How the results depend on the processing

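All 7 tested members were called higher than MEF in muscle and in transdifferentiated cells under each of the 13 alternatives, and no member changed sign in any comparison. Between transdifferentiated cells and muscle the count of members called lower was 2 with the DESeq2 test, with no filter on low counts, with only the 2 groups compared and with the replicate block, the added gene being Myom3. In the same order, 622 of 17400, 670 of 30644, 587 of 16734 and 265 of 17400 tested genes were lower there. Leaving out 1 library gave 0 to 2 members lower, 1 to 4 partner genes lower and 1 to 2 higher in that comparison, and 1 to 3 partner genes lower in muscle against MEF. Partner genes called lower than in muscle numbered 4 with DESeq2 or the 2 groups alone. Over all genes, leaving out 1 library gave 1980 to 3223 higher and 1778 to 3445 lower in muscle against MEF, 1280 to 1926 lower in transdifferentiated cells against MEF, and 589 to 1616 higher and 140 to 605 lower against muscle; with no filter 670 were lower against muscle. The cause was not tested.

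Replicate numbers are shared between groups, and replicate differences correlated at 0.314 (MEF and muscle), -0.529 and -0.291 (each with transdifferentiated cells). With 2 libraries a group, these correlations cannot decide whether the numbers mark pairs. The replicate block gave 265 genes lower in transdifferentiated cells against muscle (428 without it), 1 partner gene higher and 1 lower there, and 1 partner gene lower in muscle against MEF. A crossed replicate block, chosen after seeing the data, gave 4716 genes higher in muscle against MEF, 4521 higher and 3828 lower in transdifferentiated cells against MEF with 4 partner genes lower, and against muscle 2662 higher and 1762 lower with 1 member higher, 5 members lower and 12 partner genes lower. Depth limits Mybpc3, with at most 8 counts in a library, and the MEF value of Mybpc2, with 1 count in all. Dividing by the longest transcript or not by length kept Myom2 above Myom3 in transdifferentiated cells.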

Other observations

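Among the marker lists, some genes outside the thick filament also set transdifferentiated cells apart from muscle. The genes here were named after their values were seen, Cdh15, Chodl and Vcam1 apart. The satellite cell regulators Pax7 and Myf5 stood at 15.6 and 34.8 CPM in muscle and at 0.0523 and 0.213 in transdifferentiated cells (edgeR adjusted p = 2.5e-04 and 1.0e-04), while the cadherin Cdh15 stood at 302 and 287 CPM (adjusted p = 0.95). Other markers of that list went the other way. Chodl stood at 3.51 CPM in muscle and 17.6 in transdifferentiated cells (edgeR adjusted p = 0.0157). Vcam1 stood at 18.0 and 38.5 CPM (adjusted p = 0.0422). Of the 6 satellite cell markers tested, 2 were higher and 2 lower than in muscle.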
